A study of Bos indicus with 9 samples.

Results

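Interleukins and their receptors were followed in the bovine corpus luteum, the progesterone-secreting gland that forms from the ovulated follicle. Members were all genes with a single symbol in the array's probe table that starts with IL and a digit, and each was read from its probe set of highest mean signal. This gave 39 of 9111 named genes, with 54 probe sets among the 23912 tested. By role, 20 encode ligands, counting IL1RN, a secreted antagonist of the IL1 receptor, and 19 encode receptor chains. All 9 animals were Nelore crossbred cows (Bos indicus, 2 to 5 years of age) whose cycles were synchronised by estradiol benzoate and a device releasing progesterone, and the gland was taken at slaughter on day 6 after ovulation. The 3 control cows received no equine chorionic gonadotropin (eCG), a gonadotropin of the pregnant mare that acts in cattle on receptors of both pituitary gonadotropins. In the 3 stimulated cows 400 IU of eCG was given at day 8 of the synchronisation, and in the 3 superovulated cows 2000 IU at day 4, so dose and day changed together. RNA of each animal was run on 1 Affymetrix bovine array.

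Interleukins are small secreted proteins through which leukocytes, endothelium and other cells signal over short distances. IL1-family ligands such as IL1B, IL18 and IL33 act through paired receptor chains and the adaptor MYD88, while most others act through receptor chains that carry JAK kinases and activate STAT transcription factors. In the ovary they are studied in ovulation, in luteal formation and in the regression of the gland, when leukocytes enter it.

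Signals are on a log2 scale, so a difference of 1 is a doubling. Signals ran from 0.85 to 15.36, with array medians between 4.18 and 4.24. Since probe sets bind their targets unequally, each gene is compared between animals and not with other genes. A member was called near background where all 3 group means were under 3. The 8 markers of luteal steroidogenic cells averaged 12.33 to 12.73 per array, and none of them was near background. Of the measured leukocyte markers, 5 of 6 of B and plasma cells, 4 of 8 of NK cells, 4 of 12 of T cells (CD4 among them), 3 of 8 of neutrophils, 1 of 4 of mast cells and eosinophils and 1 of 12 of myeloid cells were near background. In whole tissue, fewer cells of a type and less RNA per cell cannot be told apart.

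Near-background signals were found for 19 of the 39 members (48.7%), against 16.3% of all named genes. They comprised 12 of the 20 ligands and 7 of the 19 receptor chains. The ligands were IL1A, IL2, IL3, IL4, IL5, IL7, IL10, IL12A, IL12B, IL13, IL17A and IL21, which include the growth factors of T cells (IL2, IL7), the cytokines of type 2 helper cells (IL4, IL5, IL13) and both chains of IL12. Receptor chains in this class were IL2RA, IL6R, IL12RB2, IL17RB, IL18R1, IL22RA1 and IL23R. On single arrays these 19 genes lay between 1.80 and 3.11, and the highest animal exceeded the lowest by 0.08 to 0.48, so no animal stood out for any of them. IL10, an anti-inflammatory cytokine, had group means of 2.71, 2.67 and 2.66 in control, stimulated and superovulated glands. IL18R1, the ligand-binding receptor of IL18, had group means of 2.32, 2.32 and 2.42. At such signals a low level and no expression cannot be told apart.

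A further 13 members had intermediate signals, with at least 1 group mean of 3 or more and a mean over the 9 arrays under 4. They were the ligands IL1B, IL1RN, IL6, IL15, IL16 and IL34 and the receptor chains IL1R1, IL1R2, IL2RG, IL17RC, IL20RA, IL20RB and IL21R. Their single signals ran from 2.55 to 4.32. IL1R1, the signalling receptor of IL1, had the widest range of these at 1.74, against a median range of 0.53. Only 7 members had a mean of at least 4, namely the ligands IL18 and IL33 and the receptor chains IL13RA1, IL10RB, IL4R, IL1RAP and IL10RA. All 39 symbols are listed by RefSeq (assembly NIAB-ARS_B.indTharparkar_mat_pri_1.0), and members that are direct neighbours there did not share their signal class in every case. IL4R, with a mean of at least 4, is adjacent to IL21R, an intermediate member. IL1A, near background, is adjacent to IL1B, an intermediate member. IL4 and IL13 are adjacent and both near background, as are IL2 and IL21, and IL12RB2 and IL23R. IL1R1 and IL1R2 are adjacent and both intermediate.

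**Figure D1:**
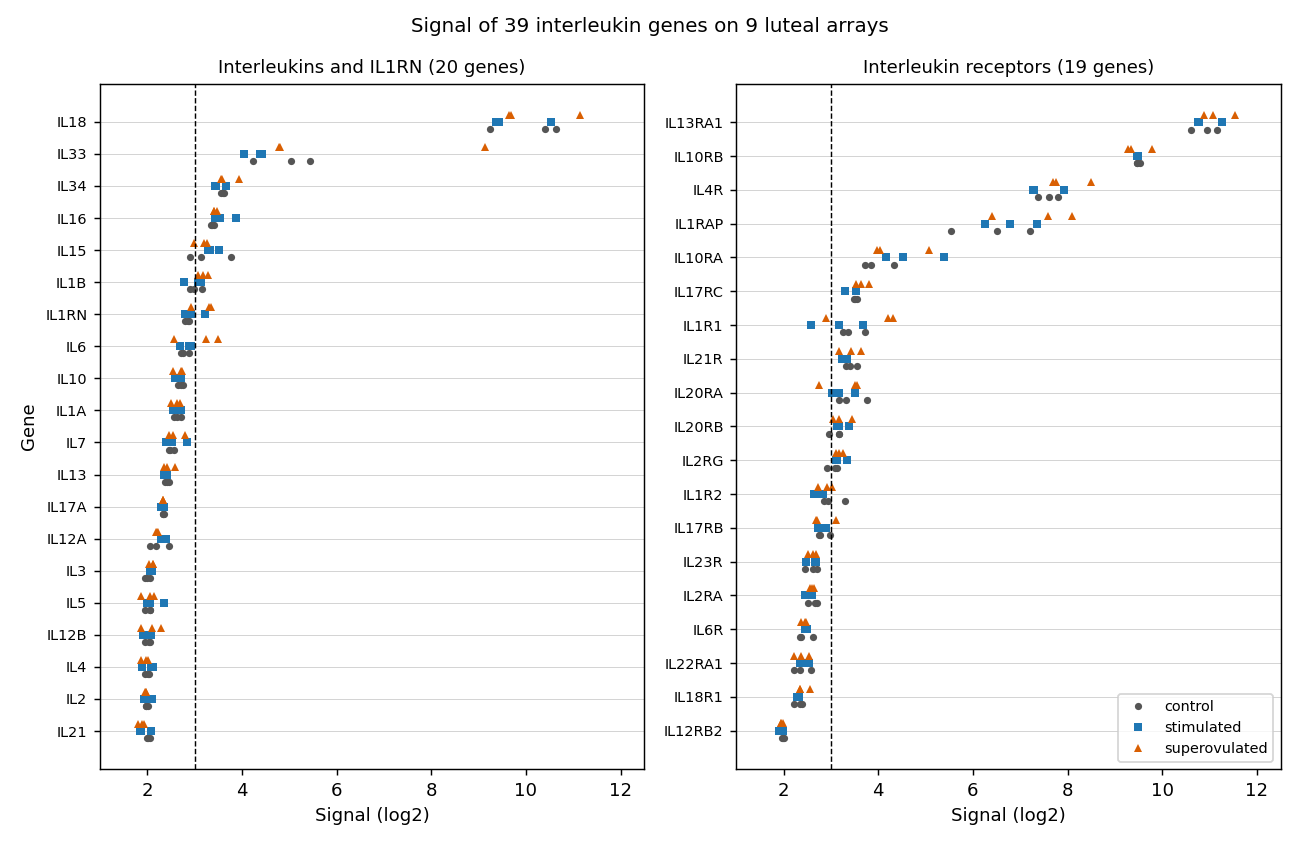
Signal (log2, x axis) of the 20 ligand genes (left) and 19 receptor genes (right) on each of the 9 arrays, with colour and marker shape for the group and a dashed line at 3. Most genes lie near or left of the line in all 3 groups, and 7 genes, IL13RA1, IL18 and IL10RB among them, lie clear of it.

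IL18, a cytokine of the IL1 family that is stored as an inactive precursor and cut by an inflammatory caspase, had signals of 9.23, 10.63 and 10.40 in control replicates 1 to 3, 9.37, 10.52 and 9.44 in stimulated and 9.65, 11.14 and 9.68 in superovulated animals. Animals of every group were found at both ends, so the groups overlapped completely, and the values fell at 2 levels, 5 animals at 9.23 to 9.68 and 4 at 10.40 to 11.14. Group means were 10.09 ± 0.75, 9.78 ± 0.65 and 10.16 ± 0.85 (SD, n = 3), closer together than the animals within a group.

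IL33, an IL1-family cytokine held in the nucleus of barrier cells and released on damage, had 4.24, 5.43 and 5.03 in control and 4.43, 4.04 and 4.38 in stimulated animals. In superovulated animals it had 4.79, 4.81 and 9.14. Superovulated replicate 3 alone was high, 3.71 above the next animal, while the other 8 lay within 4.04 to 5.43. A second probe set of IL33 was also highest in this animal, at 7.26 against at most 4.89 elsewhere, and the remaining one was near background throughout at a mean of 2.25. Among all 23912 tested probe sets 1 other stood out further in this animal, that of PERP, a membrane protein of cell junctions, at 9.32 against at most 4.91 elsewhere. The marker means of this animal for endothelium, 7.41, and for pericytes, smooth muscle and fibroblasts, 9.32, lay within the range of the other 8. Its epithelial marker mean of 3.17 lay below superovulated replicate 2 (3.68) and above the other 7 animals (2.95 to 3.11). Of these 10 markers 4 were near background in all groups, and the part of the markers in the IL33 signal was not tested.

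IL13RA1, a receptor chain that binds IL13 and pairs with IL4R, had 10.62, 11.16 and 10.94 in control, 10.78, 11.25 and 10.76 in stimulated and 11.07, 11.53 and 10.88 in superovulated animals. These signals rest on a restored decimal mark that was ambiguous on all 9 arrays and read as above 10 from level and spread. On this probe set the groups overlapped, with means of 10.91 ± 0.27, 10.93 ± 0.28 and 11.16 ± 0.33 (SD, n = 3). A dimmer probe set of IL13RA1, with no ambiguous mark and a mean of 3.44, differed. Its superovulated animals (3.65, 3.80 and 3.57) lay above all controls (3.23 to 3.46) and all stimulated animals (3.25 to 3.44). The group means differed by 0.36 and 0.32. Over the array 5.16% and 6.62% of probe sets were higher without overlap in these comparisons. IL4R, the chain that binds IL4, had 7.61, 7.38 and 7.79 in control, 7.27, 7.92 and 7.28 in stimulated and 7.75, 8.49 and 7.69 in superovulated animals. Superovulated replicate 2 was the highest of all 9 for both genes. IL2RG, the shared gamma chain of several interleukin receptors, was dim, at 3.08, 3.13 and 2.91, then 3.33, 3.10 and 3.14, then 3.26, 3.16 and 3.11 in the same order of groups.

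IL10RB, a chain shared by the receptors of IL10, IL22 and type III interferons, had 9.53, 9.46 and 9.46 in control, 9.46, 9.50 and 9.46 in stimulated and 9.77, 9.27 and 9.34 in superovulated animals. The control and stimulated animals together spanned less than the superovulated ones alone, whose SD was 0.27 against 0.04 and 0.02. IL10RA, the IL10-binding chain found mainly on leukocytes, had 3.73, 4.34 and 3.84 in control, 4.17, 5.38 and 4.52 in stimulated and 4.04, 5.07 and 3.98 in superovulated animals. Its highest animals were stimulated and superovulated replicate 2.

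IL1RAP, the accessory chain that IL1, IL33 and IL36 receptors need to signal, had 5.53, 7.21 and 6.52 in control, 6.78, 7.35 and 6.25 in stimulated and 7.60, 8.10 and 6.40 in superovulated animals. It had the widest range of any member after IL33, at 2.57. The 2 other probe sets of IL1RAP had mean signals of 2.74 and 2.57, near background. IL1R1, which IL1RAP joins once IL1 is bound, had 3.25, 3.71 and 3.36, then 2.59, 3.67 and 3.18, then 4.32, 4.21 and 2.90. Both receptor chains were thus higher in superovulated replicates 1 and 2 than in any control animal, whereas in superovulated replicate 3 both lay below at least 1 control animal. The decoy receptor IL1R2, which takes up IL1 without signalling, had 2.93, 3.30 and 2.86 in control, 2.81, 2.83 and 2.64 in stimulated and 3.01, 2.91 and 2.74 in superovulated animals.

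**Figure D2:**
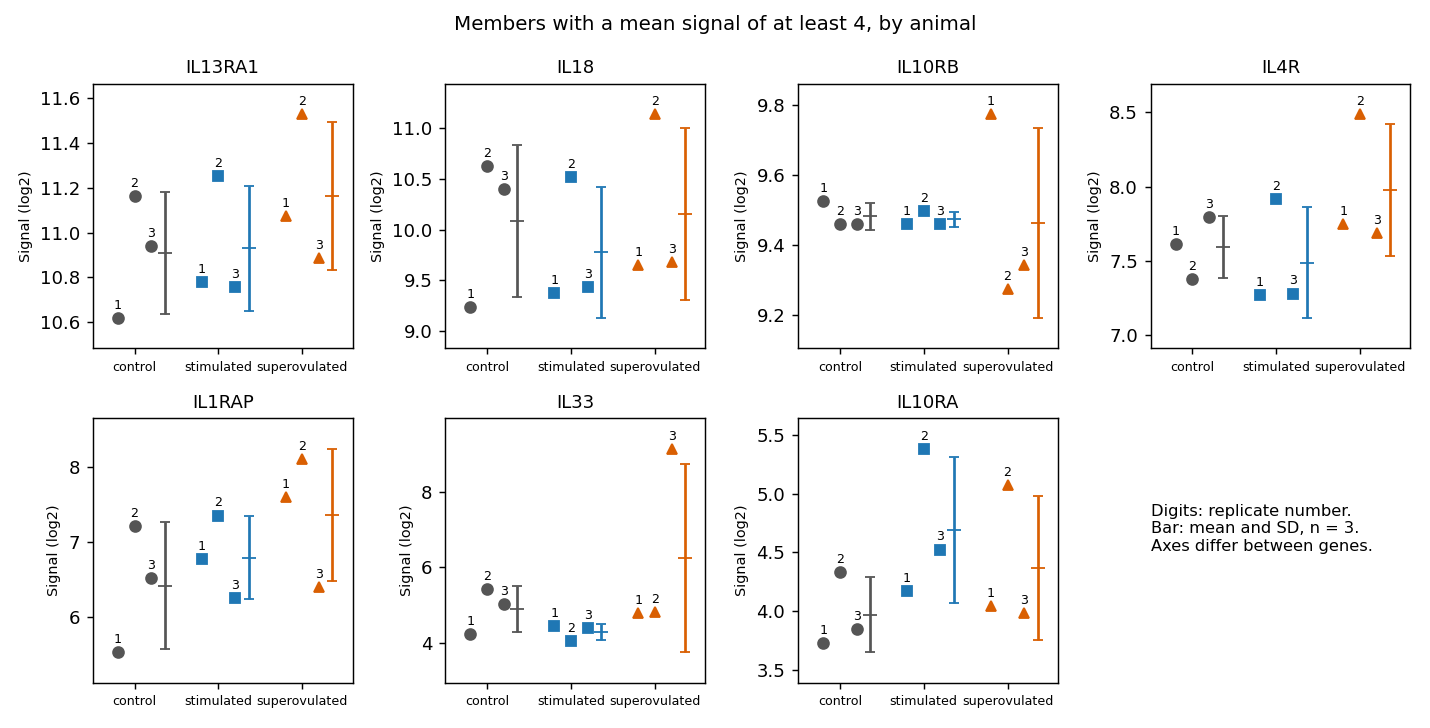
Signal (log2, y axis, scaled per gene) of the 7 members with a mean of at least 4 in each animal, grouped on the x axis, with digits for the replicate number and bars for the group mean and SD (n = 3). IL33 stands at 9.14 in superovulated replicate 3 alone, and replicate 2 is the highest of its group in all 3 groups for IL13RA1, IL18, IL1RAP and IL10RA.

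Some of these members were high in the same animals. In each of the 3 groups the animal labelled replicate 2 had the highest signal of IL13RA1, IL18, IL1RAP and IL10RA. These are 4 of the 7 members with a mean of at least 4 (57.1%), against 10.9% of the 12475 probe sets at such a mean. This contrast is a description and no test, since number 2 was counted because these same signals peak in it. The 4 genes were also read in the same animals, so they do not count as separate observations. Of 10 pairs among IL13RA1, IL10RB, IL4R, IL1RAP and IL10RA, 1 passed after Benjamini-Hochberg adjustment (IL18 and IL33 were left out of the pairs because their values fell at separate levels). That pair was IL13RA1 with IL1RAP, with Pearson's r = 0.92 (n = 9 animals, exact permutation p = 0.00071, adjusted 0.0071) and Spearman's rho = 0.90 (exact permutation p = 0.0020, adjusted 0.0203), both 2-sided. With each group's mean removed r was 0.92, and without the 2 animals farthest from the median of IL13RA1 it was 0.81. How often other pairs of probe sets on the array reach such an r was not computed. The permutation treats the 9 animals as exchangeable. Over all probe sets, deviations of the replicate 2 animals from their group means correlated with each other at 0.27 to 0.38. IL13RA1 with IL4R had r = 0.75 (exact permutation p = 0.0189, adjusted 0.0901) and with IL10RA r = 0.72 (exact permutation p = 0.0270, adjusted 0.0901), neither of which passed. With group means removed these were 0.70 and 0.92, and without the 2 farthest animals 0.59 and 0.51. IL10RB had r between -0.31 and -0.02 with the other 4. Without the 2 farthest animals 3 of these turned positive, to 0.34 with IL13RA1, 0.21 with IL10RA and 0.02 with IL4R, so no direction holds for them.

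Some marker means of cell types were also at an extreme in the replicate 2 animals, and others were not. No correlation of markers with the members was computed. The 3 animals labelled replicate 2 had the lowest steroidogenic marker means, 12.33, 12.34 and 12.35 against 12.44 to 12.73 in the other 6. They also had the highest myeloid marker mean of their group, 5.84 in control, 7.38 in stimulated and 7.08 in superovulated, where the other animals of the group had at most 5.61, 6.77 and 6.11. Means of the pericyte, smooth muscle and fibroblast markers were 9.74, 9.72 and 10.11 in them, and 8.93 to 9.74 in the other 6. Endothelial means were 8.13, 8.14 and 7.83 in them, and 7.18 to 7.85 in the other 6. Neutrophil means were 5.58, 4.24 and 5.63, against 4.29 to 5.51. Outside the replicate 2 animals, control replicate 3 had the lowest myeloid mean, 4.75, with IL18 at 10.40. The part of these markers in the shared pattern of IL13RA1, IL18, IL1RAP and IL10RA was not tested. The labels tie no number to a shared batch, day or animal.

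**Figure D3:**
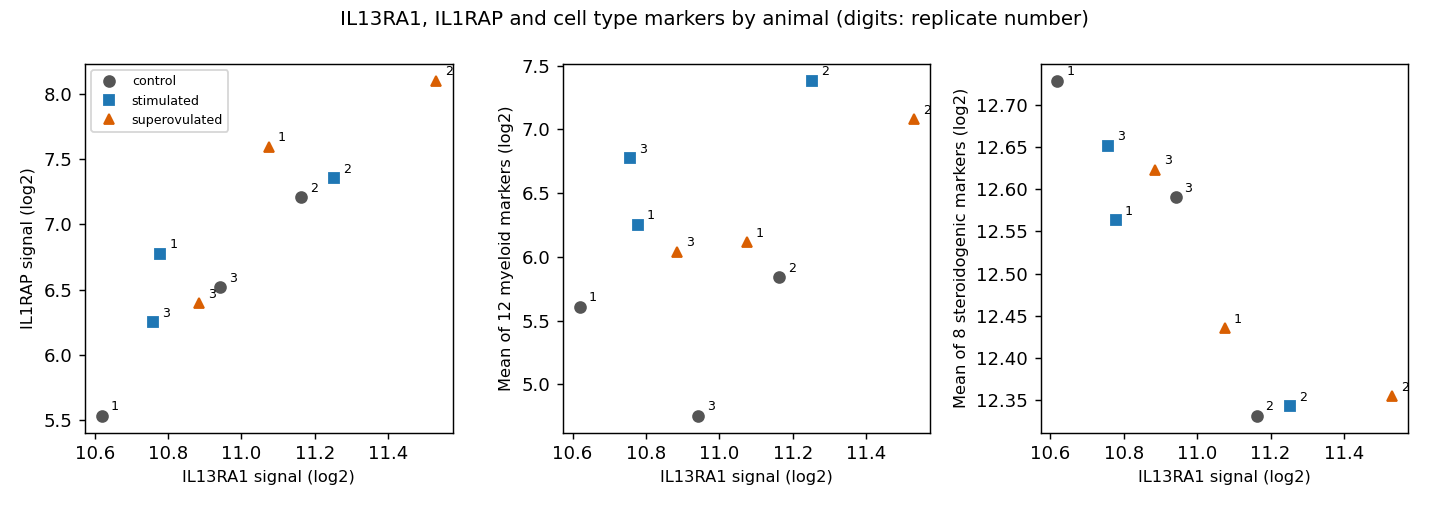
IL13RA1 signal (log2, x axis) of each animal against IL1RAP signal, the mean of 12 myeloid markers and the mean of 8 steroidogenic markers (log2, y axes), with digits for the replicate number. The replicate 2 animals combine high IL13RA1 and IL1RAP with the lowest steroidogenic means, 12.33 to 12.35.

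Stimulated against control glands, which asks how luteal expression differed after the low dose, showed no interleukin gene past the threshold. Of 39 members 0 passed at an adjusted p under 0.05 in limma's test, in either direction, and 0 had an unadjusted p under 0.05, whereas 3.68% of all probe sets were higher and 2.74% lower at that level. Adjusted, 0 probe sets of the array were higher and 0.00418% lower, a single probe set that is no member. The median log2 fold change was -0.01 over the members and -0.004 over all probe sets. Positive values were found for 18 of 39 members and 11674 of 23912 probe sets. At a mean of at least 3 these were 8 of 18 members and 8376 of 16184 probe sets. IL16, a chemoattractant of CD4-bearing cells, had the smallest p, with 3.41, 3.34 and 3.36 in control against 3.87, 3.44 and 3.53 in stimulated animals. These groups did not overlap, and stimulated animals were on average higher by 0.24 on the log2 scale (SE 0.11, adjusted p = 0.783). Leaving out stimulated replicate 1 gave 0.11, and averaging its 3 probe sets gave 0.08. IL1R2 was the 1 member whose stimulated animals all lay below the controls. Its group means differed by -0.27 (SE 0.13, adjusted p = 0.793), or -0.14 without control replicate 2, and its stimulated mean of 2.76 lay in the near-background range. Over the array 5.79% of probe sets were higher and 5.71% lower without overlap, which are larger shares than 1 of 39 members in each direction.

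IL10RA had the highest log2 fold change of any member in this comparison, 0.72 (SE 0.39, adjusted p = 0.833), with 1 stimulated animal inside the control range. Without stimulated replicate 2 the value was 0.38. Myeloid markers averaged 5.40 ± 0.57 in control and 6.80 ± 0.57 in stimulated animals (SD, n = 3), without overlap, and their part in the IL10RA value was not tested. IL2RG differed by 0.15 on the log2 scale (SE 0.09) and IL21R, the IL21-binding chain, by -0.13 (SE 0.12), with adjusted p values of 0.863 and 0.899. The IL21R signals were 3.40, 3.31 and 3.55 in control, 3.29, 3.34 and 3.24 in stimulated and 3.42, 3.63 and 3.16 in superovulated animals. Both came nearer to 0 when certain animals were left out, though neither changed sign. IL2RG had 0.08 without control replicate 3 or stimulated replicate 1, and IL21R had -0.07 without control replicate 3. IL2RA, IL3 and IL21 completed the 8 smallest p values with log2 fold changes of -0.12, 0.07 and -0.10 at near-background signals. IL2RA, the high-affinity IL2 chain, had 2.51, 2.66 and 2.71 in control, 2.46, 2.61 and 2.47 in stimulated and 2.65, 2.56 and 2.61 in superovulated animals. IL3 had 1.95, 1.99 and 2.07, then 2.07, 2.11 and 2.05, then 2.13, 2.12 and 2.04 in the same order. IL21, a cytokine of helper T cells, had 1.99, 2.06 and 2.02, then 2.07, 1.87 and 1.84, then 1.80, 1.93 and 1.89. Leaving out single arrays took IL2RA from -0.18 without control replicate 1 to -0.08 without control replicate 3, and IL21 from -0.17 without stimulated replicate 1 to -0.05 without stimulated replicate 3. Without control replicate 1 the IL3 value was 0.05.

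Superovulated against control glands, the same question for the high dose, also gave 0 of 39 members at an adjusted p under 0.05, as for all other probe sets of the array (0% in each direction). At an unadjusted p under 0.05, 1 member was higher and 0 lower, against 2.59% and 3.6% of all probe sets. That member was IL1RN, the receptor antagonist that blocks IL1 signalling, with 2.80, 2.86 and 2.89 in control, 2.79, 3.22 and 2.92 in stimulated and 2.92, 3.35 and 3.31 in superovulated animals. All superovulated animals lay above all controls, at least 2.92 against at most 2.89. The group means differed by 0.34 on the log2 scale (limma's test, SE 0.15, unadjusted p = 0.0471, adjusted p = 0.802), but the control mean of 2.85 lay in the near-background range. This difference stayed between 0.26 and 0.48 when single arrays were left out. IL21 was the 1 member with all superovulated animals below the controls, at signals of about 2 (log2 fold change -0.15, SE 0.08, adjusted p = 0.828). Over the array 5.16% of probe sets were higher and 5.71% lower without overlap.

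The larger differences in this comparison belonged to members that varied widely between animals. IL33, named here after its value was seen, had the highest, 1.35 (SE 1.07, adjusted p = 0.876). It turned to -0.10 without superovulated replicate 3, and was 2.08 without superovulated replicate 1, 2.06 without superovulated replicate 2 and 0.72 when its 3 probe sets were averaged. IL1RAP was higher by 0.94 on average (SE 0.55, adjusted p = 0.846), and this was 0.50 without control replicate 1, 0.58 without superovulated replicate 2 and 1.43 without superovulated replicate 3. The mean of its 3 probe sets gave 0.45. IL4R had 0.38 (SE 0.26, adjusted p = 0.858), which was 0.13 without superovulated replicate 2, and its dimmer probe set had 0.23. IL6, a pleiotropic inflammatory cytokine, had 2.71, 2.88 and 2.76 in control, 2.89, 2.92 and 2.69 in stimulated and 3.24, 3.50 and 2.55 in superovulated animals. Superovulated replicates 1 and 2 were the highest and replicate 3 the lowest of all 9. The log2 fold change of IL6 was 0.32 (SE 0.22, adjusted p = 0.861), or 0.11 without superovulated replicate 2 and 0.59 without replicate 3. Its control and stimulated means of 2.78 and 2.83 lay in the near-background range. IL17RC, a chain of the IL17 receptor, had 0.14 (SE 0.10, adjusted p = 0.858), and 0.07 without superovulated replicate 3. For IL2RG it was 0.13 (SE 0.09), or 0.07 without control replicate 3, and for IL3, near background, 0.09 (SE 0.06). Of the 39 members 22 were positive, with a median of 0.04, against 12133 of 23912 probe sets with a median of 0.002. At a mean of at least 3, 14 of 18 members were positive with a median of 0.14. Over the array 7991 of 16184 probe sets of such a mean were positive, with a median of -0.002. All members were read in the same animals and were not tested as a set.

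**Figure D4:**
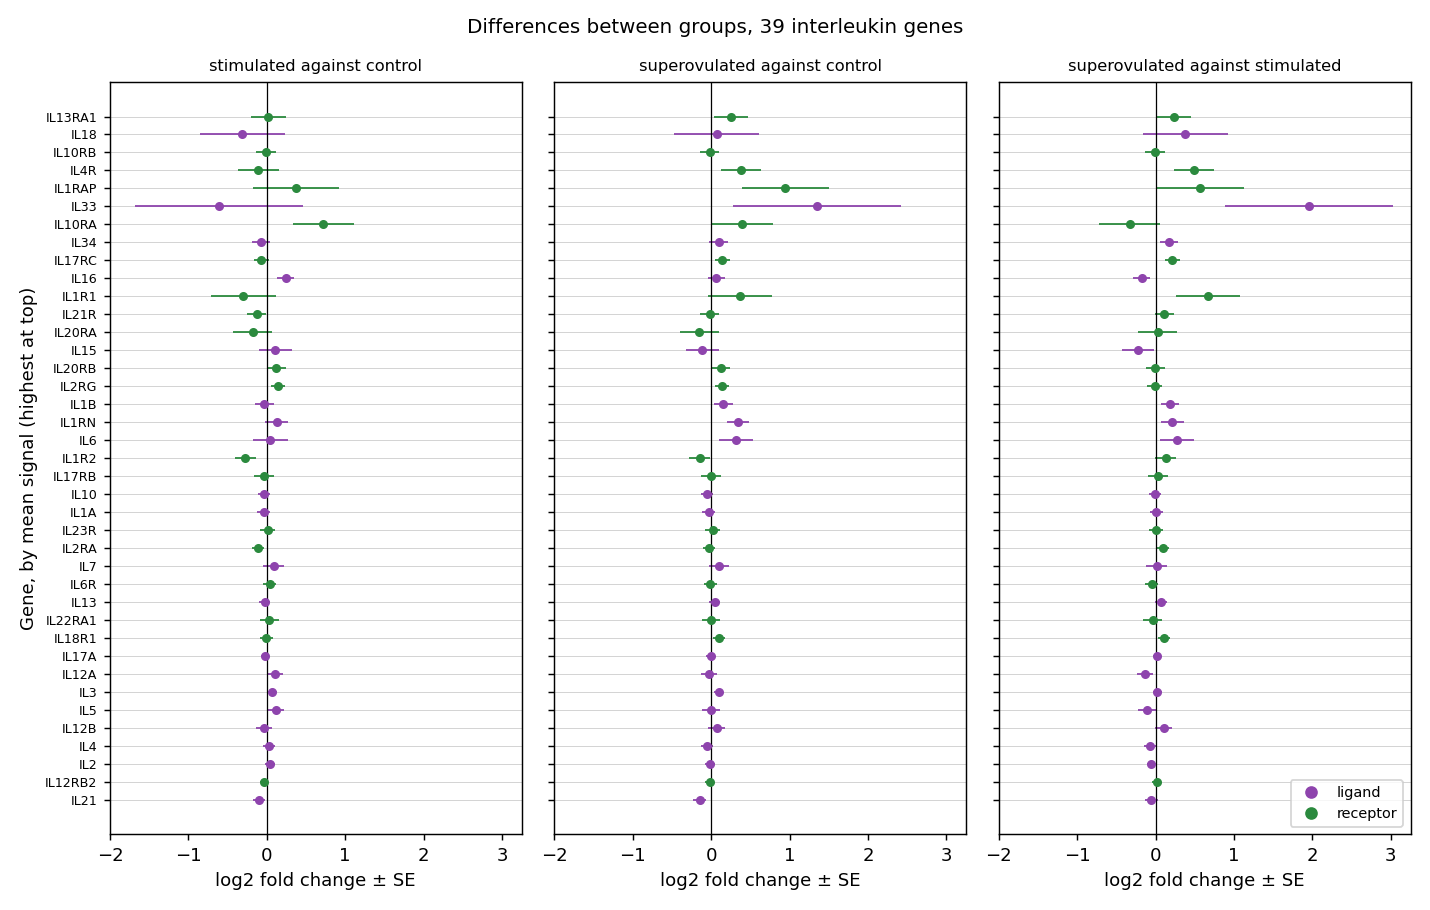
Log2 fold change with its standard error (x axis) of the 39 members, ordered by mean signal, in the 3 comparisons, with colour for ligand or receptor. No member passes the test, and the widest errors belong to IL33, IL1RAP and IL18, which vary most between animals.

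Between the treated groups, superovulated against stimulated, 0 of 39 members passed and 0 had an unadjusted p under 0.05 in either direction, against 4.04% of all probe sets higher and 5.6% lower at that level in limma's test. With adjustment 0.00418% of probe sets were higher and 0% lower. These animals also enter the comparisons above. Positive differences were found for 25 of 39 members and 12266 of 23912 probe sets, with medians of 0.02 and 0.005. At a mean of at least 3 these were 12 of 18 members and 7651 of 16184 probe sets, again not tested as a set. IL33 had the highest value, 1.96 on the log2 scale (SE 1.07, adjusted p = 0.605), and all superovulated animals lay above all stimulated ones. Without superovulated replicate 3 it was 0.51 (SE 0.32, adjusted p = 0.617), and averaging its 3 probe sets gave 1.13. IL1R1 had 0.67 (SE 0.41, adjusted p = 0.642), which ran from 0.39 without stimulated replicate 1 and 0.41 without superovulated replicate 1 to 1.12 without superovulated replicate 3. IL4R had 0.49 (SE 0.26, adjusted p = 0.594) and 0.23 without superovulated replicate 2.

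The smallest p among members in this comparison was that of IL17RC, with 3.55, 3.49 and 3.51 in control, 3.30, 3.52 and 3.53 in stimulated and 3.64, 3.52 and 3.81 in superovulated animals. The treated groups overlapped and differed by 0.21 (SE 0.10, adjusted p = 0.542), or 0.13 without stimulated replicate 1 or superovulated replicate 3. IL34, a ligand of the macrophage growth factor receptor CSF1R, had 3.62, 3.55 and 3.60, then 3.45, 3.67 and 3.43, then 3.55, 3.57 and 3.93, and differed by 0.17 (SE 0.12, adjusted p = 0.675), or 0.05 without superovulated replicate 3. IL1B, the inflammatory cytokine that the inflammasome releases, had 2.90, 3.16 and 2.99 in control, 3.12, 2.77 and 3.07 in stimulated and 3.17, 3.27 and 3.07 in superovulated animals. Its log2 fold change was 0.19 (SE 0.12, adjusted p = 0.649), or 0.08 without stimulated replicate 2, and that of IL1RN was 0.21 (SE 0.15, adjusted p = 0.672), or 0.12 without stimulated replicate 1, 0.13 without superovulated replicate 2, 0.34 without stimulated replicate 2 and 0.35 without superovulated replicate 1. IL16 had -0.18 (SE 0.11, adjusted p = 0.641), -0.05 without stimulated replicate 1, and -0.06 when its probe sets were averaged. IL33 and IL18R1 were higher and IL12A and IL15 lower without overlap, the last 3 named after their values were seen. These are 2 of 39 members in each direction, against 6.62% and 6.89% of probe sets. IL18R1 and IL12A were near background in all groups, and the lowest superovulated animal for IL18R1 had 2.34 against at most 2.33 in stimulated animals. IL15, a growth factor of NK cells, had 3.32, 3.51 and 3.29 in stimulated and 2.99, 3.27 and 3.20 in superovulated animals, and 3.13, 3.77 and 2.90 in controls.

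Across all 3 groups, limma's F test called 0 of 39 members and 0.00418% of all probe sets, and 0 members and 7.7% of probe sets had an unadjusted p under 0.05. IL1RN had the smallest p (adjusted p = 0.705).

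Genes that carry interleukin signals inside the cell were counted by list. Of 27 listed JAK kinases, STAT factors and their inhibitors 16 were measured, of 30 genes of the MYD88, IL17 adaptor, NF-kappaB and inflammasome pathways 23, and of 23 receptor partners and related cytokines outside the IL symbols 11. Of these genes 0 passed at an adjusted p under 0.05 in limma's test in any comparison. At an unadjusted p under 0.05, 2 genes of the JAK and STAT list and 3 of the MYD88 list were higher and 0 of either list lower in stimulated than in control glands, where 3.68% of all probe sets were higher and 2.74% lower. In superovulated against control glands 2 of the JAK and STAT list were higher and 1 of the MYD88 list lower, against 2.59% and 3.6% of all probe sets. In superovulated against stimulated glands 1 of the JAK and STAT list and 2 of the MYD88 list were lower and 1 receptor partner was higher, against 5.6% lower and 4.04% higher over all probe sets. PTPN6, a phosphatase of blood cells that dampens cytokine receptors, had 4.43, 4.28 and 4.04 in control, 4.82, 4.82 and 4.61 in stimulated and 4.40, 4.66 and 4.58 in superovulated animals. Its log2 fold change was 0.50 in stimulated (SE 0.12, adjusted p = 0.527) and 0.29 in superovulated glands (SE 0.12, adjusted p = 0.801). Myeloid marker means were 5.40 in control, 6.80 in stimulated and 6.41 in superovulated glands. Within control animals PTPN6 was highest in replicate 1 and the myeloid mean in replicate 2. Within stimulated animals PTPN6 was lowest in replicate 3 and the myeloid mean in replicate 1. In superovulated animals both were highest in replicate 2. The part of these markers in the PTPN6 values was not tested. STAT3, the main transcription factor below IL6 and IL10 receptors, had 11.30, 11.08 and 11.18 in control, 11.39, 11.55 and 11.50 in stimulated and 11.48, 11.50 and 11.26 in superovulated animals. All stimulated animals lay above all controls, by 0.29 on average (SE 0.09, adjusted p = 0.697), and superovulated glands had 0.22 (SE 0.09, adjusted p = 0.801).

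TRAF6, the ubiquitin ligase below MYD88 and the IL17 receptor, had 8.10, 8.58 and 8.27 in control, 8.95, 8.70 and 8.81 in stimulated and 8.34, 8.16 and 8.55 in superovulated animals. Stimulated animals lay above both other groups without overlap. Their mean exceeded that of control by 0.51 (SE 0.15, adjusted p = 0.644), while superovulated minus stimulated was -0.47 (SE 0.15, adjusted p = 0.437). STAT4, which IL12 activates, had 9.91, 8.56 and 9.16 in control, 9.95, 10.11 and 9.84 in stimulated and 9.24, 8.52 and 8.28 in superovulated animals. The superovulated and stimulated animals did not overlap (log2 fold change -1.29, SE 0.36, adjusted p = 0.391). CASP4, an inflammatory caspase, was likewise lower in all superovulated than in all stimulated animals, the difference being -0.58 (SE 0.17, adjusted p = 0.415). TAB1, which links TRAF6 to the kinase MAP3K7, had -0.19 in superovulated against control glands (SE 0.08, adjusted p = 0.801). The mean of the 16 JAK and STAT genes per array was 7.26 to 7.37 in control, 7.50 to 7.58 in stimulated and 7.37 to 7.48 in superovulated animals. For the 23 genes of the MYD88 list it was at most 7.12 in control, 7.19 to 7.30 in stimulated and 7.16 to 7.32 in superovulated animals. The 11 receptor partners had 4.15 to 4.28, 4.23 to 4.26 and 4.16 to 4.71, with overlapping groups, and none of these lists was tested as a set. In stimulated against control glands 11 of 16 JAK and STAT genes, 16 of 23 MYD88 list genes and 2 of 11 receptor partners were positive. Their median log2 fold changes were 0.09, 0.16 and -0.06, against -0.004 over all probe sets. In superovulated against control glands 12, 18 and 6 were positive, with medians of 0.17, 0.11 and 0.004, against 0.002.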

How the data were processed

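Luteal RNA of 9 cows was measured on 9 arrays. The deposited values fit no other unit class, since the numbers lost their decimal mark; how the authors summarised and normalised them is stated by no label. The mark was restored from the values, given a limit of 16 on the log2 scale. Runs open to 2 readings made up 15.5% of cells. In 19509 of 24128 probe sets no cell was open, in 1563 the other arrays settled it, and those with 9 open runs were settled by level and spread at a posterior probability of 0.95 (2934 as 1x.x and 16 as 1.x, 3.16 wrong readings expected). Another 106 stayed undecided; these (104 beside controls) and 112 array controls were left out. Among member probe sets, the brighter one of IL13RA1 was read by level and spread, and those of IL18 and a dimmer one of IL1A by the other arrays. The log2 reading rests on the recovered range of 0.85 to 15.36. No further normalisation was applied.

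A linear model per probe set (23912 in all) used limma 3.58.1 under R 4.3.3 (lmFit and eBayes, 9 arrays, 6 residual degrees of freedom, 2-sided, Benjamini-Hochberg over all probe sets); an adjusted p under 0.05 passes. SE are from this fit. The fit was first tested on simulated data. The labels call replicates biological, and precision is limited by having 3 arrays a group. Values are given per animal for the 8 members of smallest p in each comparison and for members with a mean of at least 7; of the other pathway genes the 3 of smallest p per comparison are named. Members and lists were chosen with earlier results of these data known. Other normalisation, filters, variance priors, groups in the fit, probe set choice, a replicate block and leaving out each array were tried. No sequences were used here.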

Additional observations from a re-analysis of the deposited data

How the results depend on the processing

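No interleukin gene passed under any alternative run in any of the 3 comparisons or the F test: quantile normalisation, only probe sets with a mean of at least 3 (18 members), only probe sets with no open digit run (37 members), a trended robust prior, only the groups compared, the mean of a gene's probe sets, the replicate block and each array left out (0 to 0). Of 25 fold changes of members, 1 changed sign, that of IL33 in superovulated against control glands, from 1.35 to -0.10 without superovulated replicate 3 (range -0.10 to 2.08 when single arrays were left out). The count of all passing probe sets was 1, 0 and 1 in stimulated against control, superovulated against control and superovulated against stimulated. For the first it was 3 with the replicate block and 1 to 2 when single arrays were left out (2 without control replicate 2 or superovulated replicate 3). For the second it was 1 with only the groups compared and 0 to 1 (1 without stimulated replicate 3). For the third it was 2 with quantile normalisation, 2 without open digit runs and 1 to 3 with single arrays left out (3 without superovulated replicate 1, 2 without stimulated or superovulated replicate 3). For the F test it was 1, and 1 to 2 (2 without stimulated or superovulated replicate 3). With the replicate block the lowest adjusted p of a member was 0.359, 0.564 and 0.457. Members with an unadjusted p under 0.05 in limma's test numbered 3, 3 and 0 of 39 with the block, against 0, 1 and 0 without it. Over all 23912 probe sets these counts also rose, to 2026, 1971 and 2734 with the block from 1536, 1481 and 2306 without it. The rise is thus not particular to the members. The SE of IL10RA in stimulated against control went from 0.39 to 0.14. Deviations of same-numbered animals correlated at -0.04 to 0.38, over 0 in 8 of 9 pairs and over 0.1 in 7, and those of animals with different numbers at -0.36 to 0.26, under 0 in 13 of 18. Deviations add up to 0 within each group, so positive values in same-numbered pairs push those of different numbers under 0 by construction. Control replicate 1 correlated best with superovulated replicate 3. The numbers were not taken as pairs because the labels name no pairing. Whether animals of 1 number share a batch was not tested, and the correlations are a hint from the data, not the design. Members near background numbered 19, 13 under a limit of 2.5, 32 under a limit of 4 and 21 for the mean of a gene's probe sets, so this count depends on the limit.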

Other observations

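Single animals stood apart on few probe sets. Superovulated replicate 3 lay at least 2 above all other arrays on 7 of 23912 probe sets, and superovulated replicate 2 on 14, against 1 to 3 in each of the other 7 arrays. Of the 7 in superovulated replicate 3, 2 are probe sets of IL33 and 1 carries no symbol. The rest are PERP, CPXM2, a protein related to carboxypeptidases (9.62 against at most 6.70), DPYS, an enzyme of pyrimidine breakdown (5.78 against at most 3.51), and NGFR, a receptor of neurotrophins (6.30 against at most 4.07). These genes were named after their values were seen. Superovulated replicate 2 had the highest IL18, IL13RA1, IL4R and IL1RAP of all 9 animals. Of 10 epithelial markers 4 were highest in this animal and 2 in superovulated replicate 3, and the rest were highest in other animals. KRT18 and KRT19, keratins of simple epithelia, had 8.79 and 5.03 in superovulated replicate 2 against at most 5.77 and 2.61 in the others. These keratins were picked after their values were seen and do not stand for the whole list. EPCAM was highest in stimulated replicate 2, but it was near background in all groups, as were CLDN3, KRT7 and KRT8.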
